A study of Mus musculus with 12 samples.

Results

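The genes described here are the nuclear genes that code for the mitochondrial respiratory chain and the ATP synthase. They were chosen by symbol alone, as the protein-coding nuclear RefSeq genes (GRCm38) whose symbols start with Nduf, Uqcr, Atp5 or Cox4 to Cox8, together with Sdha, Sdhb, Sdhc, Sdhd and Cycs. The rule took in 97 of 21887 protein-coding genes on chromosomes 1 to 19, X and Y. A gene was said to have a peak when a peak interval overlapped its body extended by 1 kb on both sides.

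The peaks mark R-loops, stretches of DNA where RNA has paired with its template and pushed the other strand aside, and were obtained by immunoprecipitation with S9.6, an antibody against RNA-DNA hybrids. Libraries came from HEPA1-6, an established mouse hepatoma line grown in serum-containing medium, and from liver, for which the protocol names C57/Bl6 mice. Both sources are labelled WT, untreated and hepatocyte, and the ages of the animals are not given in the labels. The 12 libraries form 6 groups of 2 (immunoprecipitate, immunoprecipitate with RNase H1, which destroys hybrids, and input, for each source), but the values come from 1 merged peak list per source.

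The respiratory chain passes electrons from NADH (complex I) and succinate (complex II) through complex III and cytochrome c to oxygen at complex IV, and complex V uses the resulting proton gradient to make ATP. Complex II is coded by the nucleus alone, and complexes I, III, IV and V also contain subunits coded by mitochondrial DNA. Most of the nuclear subunit genes are short and transcribed in nearly every tissue. The factors NRF1, GABP (an ETS factor) and YY1 are known to act at many of their promoters, and liver, which makes glucose and urea at the cost of ATP, is rich in mitochondria.

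The HEPA1-6 list held 28717 peaks and the liver-labelled list 14908. The score of a peak is the authors' own value, on a scale that is not stated, and serves here only for ranks and descriptions inside each list. The second list is called liver-labelled because its peaks lay at 9 of 12 cycling cell markers but at 2 of 15 hepatocyte markers, Alb (top score 54) and Hnf4a (39). In HEPA1-6 these counts were 11 of 12 and 3 of 15, the latter being Alb (670), Hnf4a (39) and Apob (15). What part the makeup of the cells has in the results was not tested. Markers of Kupffer, endothelial, stellate, biliary and blood cells (25 genes) had a peak at 3 genes in the liver-labelled list (Csf1r, Dcn and Sox9). In HEPA1-6 the count was 4, the same 3 genes and Cd79a. Over all protein-coding genes the shares with a peak were 29.7% (liver-labelled) and 42.0% (HEPA1-6). As each source has a single list, the spread between replicates is unknown, no difference between the lists was tested, and the intervals given are 95% Wilson intervals for counting error over genes or peaks.

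Peaks were found at 71 of the 97 respiratory chain genes in HEPA1-6 (73.2%, 63.6 to 81.0%), beside 42.0% of all protein-coding genes. In the liver-labelled list 48 had one (49.5%, 39.75 to 59.3%), beside 29.7%. Both lists had a peak at 47 members (48.5%, against 27.8% of all genes), and in all 47 a HEPA1-6 peak overlapped a liver-labelled one (26.7% of all genes). A peak in HEPA1-6 alone was seen at 24 members (24.7%, against 14.2%), and a liver-labelled peak alone at 1 (1.03%, against 1.89%). The other 25 members had no peak in either list, which says only that none was called at an unknown depth. In bulk DNA, a hybrid in few cells and a rare hybrid in all cells cannot be told apart. Leaving out the 8 complex I assembly factors and 3 paralogs gave 64 and 43 of 86 genes. Without chromosomes 15 and X the counts were 67 and 45.

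**Figure D1:**
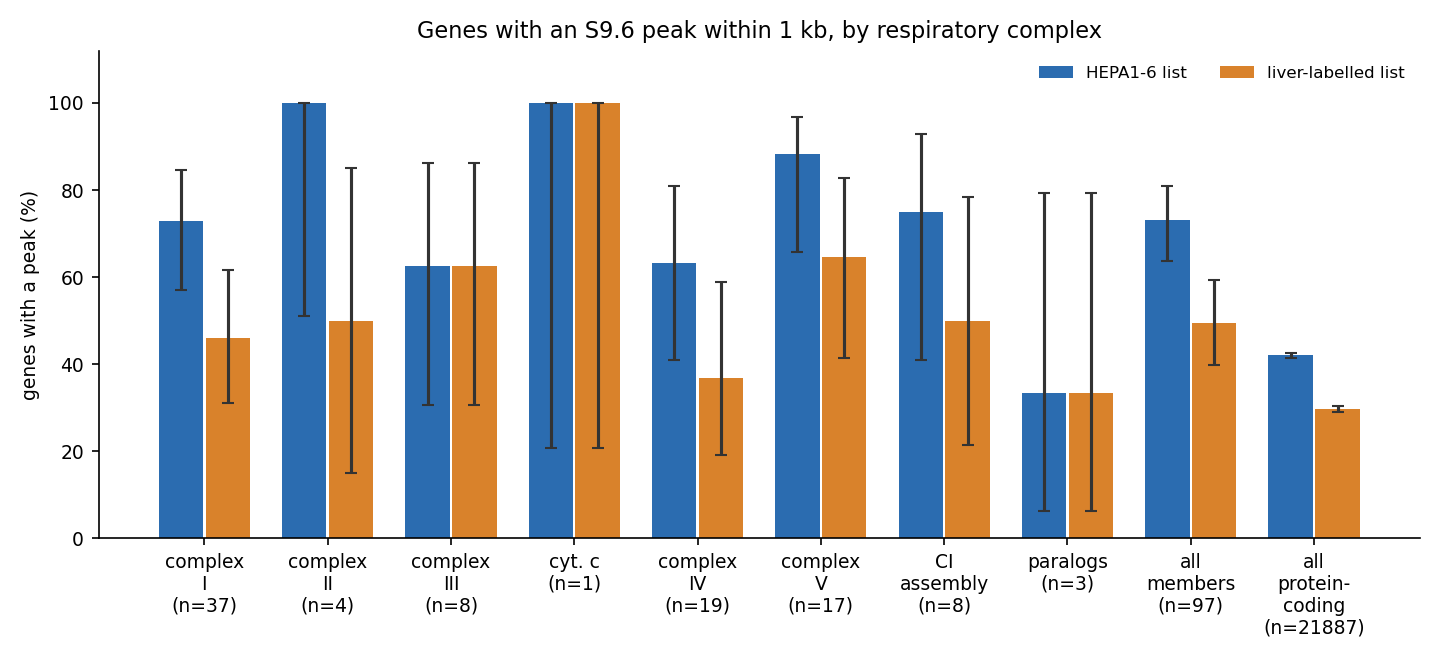
The bars give the percentage of genes with a peak within 1 kb in the HEPA1-6 list (blue) and the liver-labelled list (orange), for each complex, for all 97 members and for all 21887 protein-coding genes. Error bars are 95% Wilson intervals for counting error over genes. In HEPA1-6, complex V stands at 88.2% (65.7 to 96.7%) and complex IV at 63.2% (41.0 to 80.85%), and the intervals of all complexes overlap.

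Shares were also set beside those of genes of like length. Members were short, with a median of 7177 bp against 17169 bp over all protein-coding genes, and short genes had fewer peaks in general. Among genes in the shortest length class (up to 8739 bp, a class that held 63 members), 71.4% of the members had a HEPA1-6 peak and 52.4% a liver-labelled one. All protein-coding genes of that class stood at 28.6% and 20.9%. In the middle class (28 members) the members' shares were 75% and 35.7%, against 48.9% and 33.0%, so that in the liver-labelled list the interval of the members (20.7 to 54.2%) included the share of all genes. The longest class held only 6 members, of which 5 had a peak in each list. All protein-coding genes of that class stood at 48.45% (HEPA1-6) and 35.1% (liver-labelled). The members' interval, 43.65 to 97.0% in each list, included the first of these shares.

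**Figure D2:**
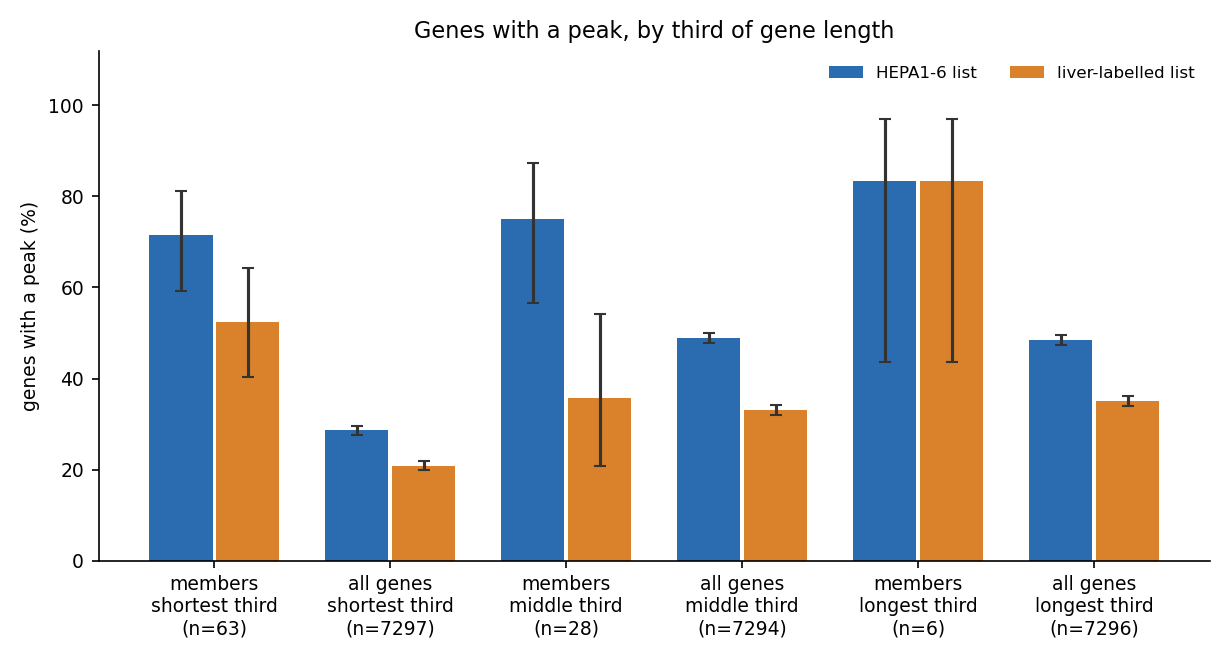
The bars give the percentage of genes with a peak in the HEPA1-6 list (blue) and the liver-labelled list (orange), for members and for all protein-coding genes in each length class, with 95% Wilson intervals for counting error. The widest gap is in the shortest class, at 71.4% of members against 28.6% of all genes in HEPA1-6.

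Many of these peaks also lay over a neighbouring gene. Of 136 HEPA1-6 peaks at members, 47 (34.6%) touched the windows of several protein-coding genes, against 9.41% of all genic peaks. In the liver-labelled list it was 31 of 74 (41.9%), against 13.1%. When only peaks over the window of a single protein-coding gene were kept, 48 members (49.5%, 39.75 to 59.3%) had a HEPA1-6 peak, beside 32.2% of all genes, and 30 (30.9%, 22.6 to 40.7%) a liver-labelled one, beside 22.0%. Under this restriction the liver-labelled interval reached down close to the share of all genes, and 23 members (23.7%) had a peak in both lists, beside 18.7% of all genes. In the shortest length class the same restriction gave 41.3% and 30.2% for members, against 13.2% and 10.4%. Close neighbours are common here: 24 of the 79 members with a RefSeq start site in the promoter table (30.4%) had the start of another gene within 1 kb in the opposite direction, against 9.61% of 17492 protein-coding genes.

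Complex I, the NADH dehydrogenase, was represented by 37 subunit genes. HEPA1-6 peaks lay at 27 of them and liver-labelled peaks at 17, all 17 being among the 27. Of the 7 core subunits, which carry the flavin and the iron-sulfur clusters, 6 had a HEPA1-6 peak and 4 a liver-labelled one. Ndufs3 was the core subunit without a peak. Of the 30 supernumerary subunits, which surround the core, 21 and 13 had a peak.

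The highest-scoring HEPA1-6 peak of complex I was at Ndufb10, a subunit of the membrane arm (chr17:24719309-24723702, score 122). The liver-labelled peak there had the same lower coordinate and ended at 24722679, with a score of 62. Both also lay over the ribosomal protein gene Rps2 and its neighbours Snhg9, Snora78 and Snora64, and covered 69.5% and 26.2% of the Ndufb10 body, so the peak cannot be given to 1 gene. At Ndufb3, another membrane arm subunit, a narrow peak of 351 bp at the start (chr1:58586287-58586637) scored 79, and a liver-labelled peak of 376 bp with the same end scored 103, the highest of complex I in that list. Both were given the minus strand, although Ndufb3 is on the plus strand, and the start of Fam126b lies within the same interval.

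The members with most HEPA1-6 peaks were Ndufa9, Ndufa12 and Sdha, genes several times as long as the median member. Ndufa9, of the matrix arm, had 6 HEPA1-6 peaks (scores 12 to 33) and 4 liver-labelled peaks (20 to 39) along its 27282 bp. Ndufa12 had 5 (scores 11 to 44) and 1 (score 18). At Ndufa6, a HEPA1-6 peak of 12511 bp (chr15:82344969-82357479, score 55) covered the whole gene and its neighbours Pheta2 and Smdt1. The liver-labelled list had 2 peaks inside that interval, of 6672 and 2947 bp, with scores of 35 and 28. At Ndufb6 a HEPA1-6 peak of 11061 bp (score 76) covered only 1.03% of the gene and lay mainly over Topors and Smim27. No liver-labelled peak lay within 1 kb of Ndufb6, and the nearest was 1141 bp from its body. Whether a liver-labelled peak overlaps this HEPA1-6 peak outside that window was not examined.

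No peak was called in either list at Ndufa1, Ndufa3, Ndufa5, Ndufa8, Ndufb5, Ndufb11, Ndufc1, Ndufc2, Ndufs3 and Ndufs5. Ndufa1 and Ndufb11 are on the X chromosome, as is Cox7b, and none of these 3 X-linked members had a peak. The share over all X-linked genes was not computed, so this count has no background beside it.

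The 8 assembly factors, proteins that help to build complex I without remaining in it, had a peak at 6 (HEPA1-6) and 4 genes (liver-labelled). Ndufaf4 led in HEPA1-6 with a peak inside the gene (chr4:24900398-24901331, score 102). The liver-labelled peak there was shorter (400 bp, score 26). At Ndufaf2 and Ndufaf5 the highest-scoring peaks lay at the start site, shared with Ercc8 and Esf1 respectively, with scores of 34 and 31 in HEPA1-6 and 35 at both in the liver-labelled list. Ndufaf3 and Ndufaf6 had none. A list of 43 further assembly and biogenesis factors, for complex I and for the other complexes, which the symbol rule does not take in, gave 31 (72.1%) and 23 (53.5%), close to the shares of the members.

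Complex II, succinate dehydrogenase, had a HEPA1-6 peak at all 4 genes and a liver-labelled peak at Sdha and Sdhd. Sdha, the flavoprotein that oxidises succinate, had 5 HEPA1-6 peaks, with scores of 68, 16, 40, 71 and 21 from the 3′ end to the start site. The liver-labelled list had 2 (scores 15 and 38), which had the same lower coordinates as the HEPA1-6 peaks scored 68 and 71. The top pair lay inside the gene (chr13:74338393-74340643 and chr13:74338393-74339215). Sdhb, the iron-sulfur subunit, had HEPA1-6 peaks of score 29 and 16 in its 3′ part and another, of score 17, in the flank beyond its end. Sdhc, a membrane anchor, had 1 (score 25), and neither had a liver-labelled peak. At Sdhd, the other membrane anchor, a 6446 bp HEPA1-6 peak (score 29) and a 989 bp liver-labelled one (score 15) covered the start that it shares with Timm8b, which codes for a chaperone of mitochondrial import. Of 14 other enzymes of the citric acid cycle, in which complex II takes part, 12 had a HEPA1-6 peak and 9 a liver-labelled one. The highest scores there were 181 and 59, both at Idh3b, a subunit of isocitrate dehydrogenase.

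Complex III, which hands electrons from ubiquinol to cytochrome c, had peaks at the same 5 of 8 genes in both lists. Uqcrh, the hinge protein that helps cytochrome c to bind, had the highest score in each list, 89 (chr4:116074785-116078170) and 57 (chr4:116074785-116076166). Both peaks covered 3.53% of Uqcrh, at its start, and extended over the neighbour Lrrc41. Uqcrb reached 35 and 15 with peaks in its flank that also lie over Gm10767, and Uqcrc1, a core protein, 33 with a peak that ran past its 3′ end and 16 with a peak inside the gene. Uqcrq and Uqcrc2 completed the 5. Uqcr10, Uqcr11 and Uqcrfs1, the Rieske iron-sulfur protein, had no peak.

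Cycs codes for cytochrome c, the soluble carrier that also triggers cell death when it leaves mitochondria. It had 1 peak in each list over its start (chr6:50564356-50567118, score 49, and chr6:50565186-50567118, score 35). Both ended at the same base, and covered 55.25% and 34.5% of the gene.

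Complex IV, cytochrome c oxidase, contained the highest-scoring peak of all members. At Cox7c, a small subunit expressed in nearly all tissues, the HEPA1-6 peak scored 467 (chr13:86046067-86047635) and the liver-labelled one 257 (chr13:86046067-86047457). These scores stood at the 99.8 and 99.4 percentile of their lists. Both peaks lay over the start and 36.5% of the gene, on its strand, and over no other gene. Cox5b came next among liver-labelled scores, at 38 (56 in HEPA1-6), in peaks of 876 and 1059 bp inside the gene. The subunits present in most tissues had a HEPA1-6 peak at 9 of 11 genes and a liver-labelled one at 5 (Cox4i1, Cox5b, Cox6c, Cox7c and Cox8a). Cox5a and Cox7b had none. Cox7a2l, a factor that joins complexes III and IV, had HEPA1-6 peaks only (3, top score 20).

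Several complex IV subunits exist as a widely expressed form and a form restricted to muscle, lung or testis. Including the pair Ndufa4 and Ndufa4l2 (Ndufa4 is counted here with complex IV), 6 of 7 widely expressed forms had a HEPA1-6 peak and 2 of 7 (Cox4i1 and Cox8a) a liver-labelled one. Of 8 restricted forms, 3 had a peak in both lists: Cox7a1 and Cox8b, the heart and skeletal muscle forms, and Ndufa4l2, which is induced by low oxygen. The shares of all protein-coding genes were 42.0% (HEPA1-6), 29.7% (liver-labelled) and 27.8% (both lists). The forms are few, no intervals were computed for them, and no difference between the 2 kinds of form was tested. At Cox8b the peaks (chr7:140895083-140901976, score 82, and chr7:140896909-140901976, score 33) covered the whole gene and part of Psmd13, a proteasome gene. At Ndufa4l2 they (chr10:127513021-127520910, score 74, and chr10:127513021-127519598, score 36) also lay over Shmt2. The peaks at Cox7a1 (scores 42 and 21) lay over the body of no other gene and covered 100% and 62.4% of it. The widely expressed partners scored lower: Cox8a 31 and 23, Ndufa4 32 with no liver-labelled peak, and Cox7a2 32 with none. Cox4i1 scored 23 and 18, and Cox6a1 (23) and Cox6b1 (15) had HEPA1-6 peaks only. The restricted forms Cox4i2, Cox6a2, Cox6b2, Cox7b2 and Cox8c had no peak.

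Complex V, the ATP synthase, had a HEPA1-6 peak at 15 of 17 genes and a liver-labelled one at 11. All 5 genes of the catalytic F1 part had a HEPA1-6 peak, and 4 had a liver-labelled one, the exception being Atp5c1. For Fo, the proton channel, and the stalk the counts were 10 and 7 of 12. At Atp5a1, the alpha subunit of F1, HEPA1-6 peaks scored 97 and 35 and covered 86.7% of the gene. The liver-labelled list had 3 peaks there (scores 40, 36 and 17) that covered 55.4%. The highest HEPA1-6 score of complex V, 107, was counted for Atp5d, the delta subunit, but that peak (chr10:80145348-80154685) covered 6.75% of Atp5d and lay mainly over its neighbour Midn. The liver-labelled peak there (8214 bp, score 50) was the widest at any member in that list, and lay wholly outside the body of Atp5d.

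Atp5pb and Atp5j, coding for stalk proteins, had higher scores in the liver-labelled list than any other member of complex V. Atp5pb had a short internal peak of 391 bp (chr3:105950618-105951008) of score 85, which overlapped a 302 bp HEPA1-6 peak of score 28 with the same lower coordinate. Its start peak, shared with Wdr77 in HEPA1-6, scored 69 there and 45 in the liver-labelled list. At Atp5j the peaks lay over the start (chr16:84832885-84836902, score 56, and chr16:84833680-84836902, score 71). The same peaks cover the start of Gabpa, which codes for the DNA-binding subunit of GABP and is transcribed in the opposite direction. The HEPA1-6 peak was given the strand of Gabpa and the liver-labelled one the strand of Atp5j. Atp5j2, a subunit of Fo, had the widest member peak of HEPA1-6, 17059 bp (score 54), which ran on over Cpsf4 and covered 49.6% of Atp5j2.

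Atp5g1, Atp5g2 and Atp5g3 code for the same mature protein, the ring subunit that carries protons. Atp5g3 had a peak in both lists (scores 30 and 16) and Atp5g2 in HEPA1-6 only (21). Atp5g1 was the single member with a liver-labelled peak and no HEPA1-6 peak (chr11:96075779-96076401, score 22). This peak lay 85 bp outside the gene body, at the start side. Atp5o, the stalk subunit that gives the enzyme its sensitivity to oligomycin, was the only complex V gene with no peak in either list.

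**Figure D3:**
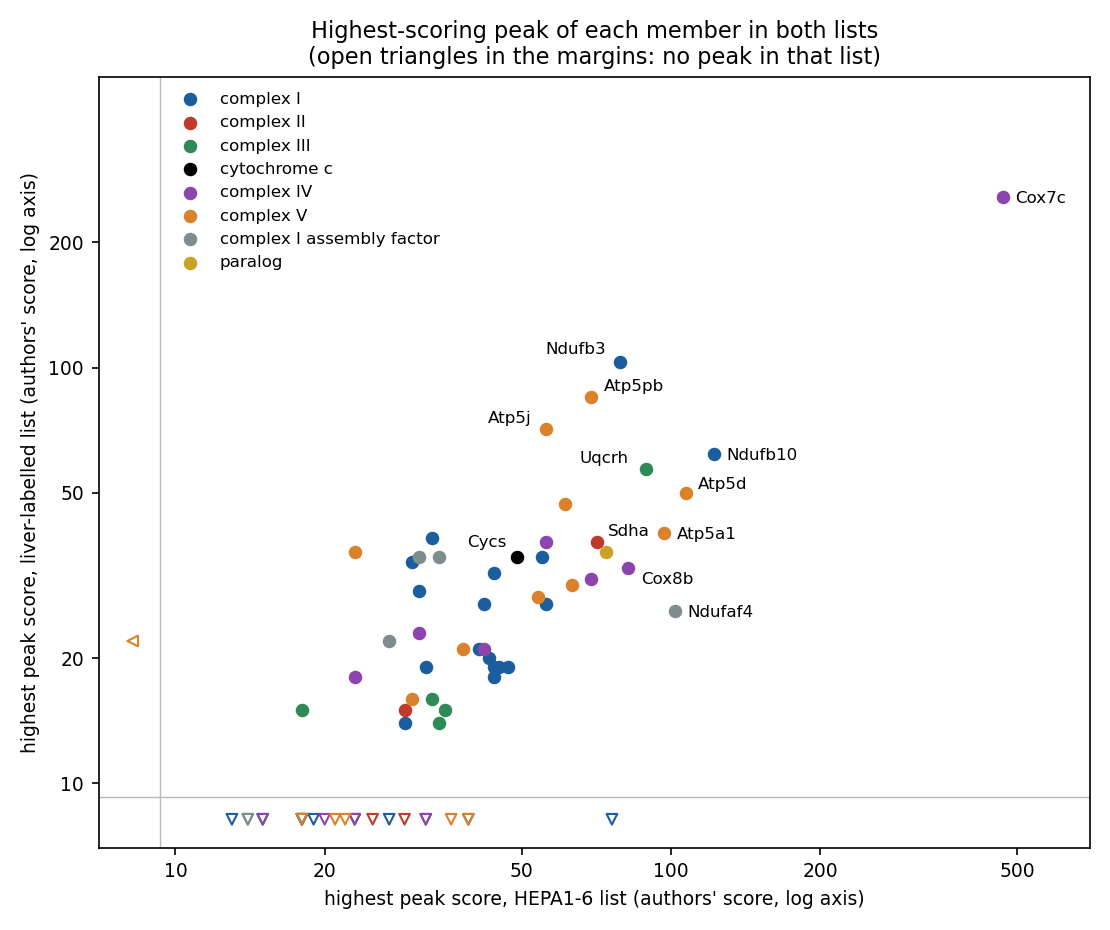
Each filled point is a member with a peak in both lists, placed by its highest HEPA1-6 score (x, log axis) and highest liver-labelled score (y, log axis) and coloured by complex. Open triangles in the margins are members with a peak in one list only. Cox7c lies apart at 467 and 257. Atp5g1 is the only triangle in the left margin.

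Across the 47 members with peaks in both lists, the ranks of the top scores had a Spearman's rho of 0.64 over genes, beside 0.70 over 6077 protein-coding genes. Genes are not independent points, and those with a peak in common carry the same score. Member peaks in HEPA1-6 had a median width of 1480 bp (95% interval 1059 to 2194 bp), beside 1137 bp for all genic peaks, and a median score of 25 (21 to 30), beside 21. In the liver-labelled list the medians were 1032 bp (876 to 1753 bp) beside 957.5 bp, and 23 (20 to 29) beside 22. With only peaks over a single protein-coding window, the HEPA1-6 medians were 1043 bp and 20, beside 1064 bp and 20 for all genes. The interval of the member width in each list included the median of all genic peaks, as did those of the scores. Peaks among the highest-scoring 10% of their list made up 15.4% of the HEPA1-6 member peaks (9.45% of genic peaks) and 9.46% of the liver-labelled ones (9.23%).

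More than 1 peak was called at 38 of the 71 members with a HEPA1-6 peak (53.5%, beside 62.4% of all genes with one) and at 16 of the 48 with a liver-labelled peak (33.3%, beside 46.1%). The median part of the gene body under peaks was 26.2% for members and 15.4% for all such genes in HEPA1-6, and 18.6% and 5.85% for the liver-labelled peaks. These parts were not matched for gene length. A peak of the same width covers more of a short gene, and members were shorter (median 7177 bp against 17169 bp). At the 47 members with a peak in both, the medians were 53.1% (HEPA1-6) and 19.4% (liver-labelled). HEPA1-6 covered more of the gene at 37 of them, the liver-labelled list at 2, and both equally at 8. Coverage was not compared between the lists in this way over all protein-coding genes, so whether members differ from other genes here is unknown. Where 2 peaks overlapped, the HEPA1-6 peak was the wider in 88.7% of pairs at members, beside 87.4% of pairs at all protein-coding genes.

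Pairs of overlapping peaks often shared an edge. Of 71 pairs at members, 41 (57.75%) had an edge within 10 bp of each other, against 47.6% of 10331 pairs at all protein-coding genes. The liver-labelled peak lay inside the HEPA1-6 peak in 62 pairs (87.3%, against 88.0%). In 14 pairs (19.7%, against 14.3%) the peaks of the lists were given opposite strands. These pairs lay at 12 members: Atp5a1, Cox8b, Atp5md, Atp5j, Ndufa6, Ndufa7, Ndufs7, Atp5h, Uqcrb, Ndufb9, Atp5b and Uqcrc2. At Atp5a1 the HEPA1-6 peak with a score of 97 (plus strand) overlapped a liver-labelled one with 40 (minus strand), an interval that also holds Haus1. At Cox8b the strands were minus in HEPA1-6 (score 82) and plus in the liver-labelled list (33). At Atp5md, a small Fo subunit, exactly the same interval was called in both lists (chr19:47089990-47091407, scores 61 and 47), on the plus strand in HEPA1-6 and on the minus strand, that of the gene, in the liver-labelled list. It also covers the start of Pdcd11. Over peaks that touch 1 gene, the peak and gene strands were equal in 65 of 75 HEPA1-6 peaks (86.7%, against 93.4% over all genes) and 32 of 35 liver-labelled peaks (91.4%, against 90.6%).

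Start and end positions were available for the 79 members in the RefSeq promoter table. A HEPA1-6 peak lay within 1 kb of the start at 40 of them (50.6%), beside 25.9% of all protein-coding genes, and within 1 kb of the end at 36 (45.6%), beside 23.8%. In the liver-labelled list it was 23 (29.1%, beside 17.9%) and 15 (18.99%, beside 11.75%). As a share of gene and peak pairs, the start held 35.4% in HEPA1-6 (27.2 to 44.6%, beside 20.8%) and 44.4% in the liver-labelled list (32.0 to 57.6%, beside 32.3%). Among genes of at least 4 kb, in which start and end windows are well apart, the members' start share was 32.0% (beside 18.8%) and 37.2% (beside 29.85%), and the latter interval, 24.4 to 52.1%, included the share of all genes. Over all protein-coding genes, a neighbour starting within 1 kb went with a peak at the start. Of the 24 members with such a neighbour, 15 (62.5%) had a HEPA1-6 start peak and 11 (45.8%) a liver-labelled one, beside 53.3% and 38.7% of all such genes. Of the 55 without, it was 25 (45.5%) and 12 (21.8%), beside 22.95% and 15.7%. The members' intervals with and without a neighbour overlapped in HEPA1-6 (42.7 to 78.8% and 33.0 to 58.5%). They also overlapped in the liver-labelled list (27.9 to 64.9% and 12.95 to 34.4%).

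**Figure D4:**
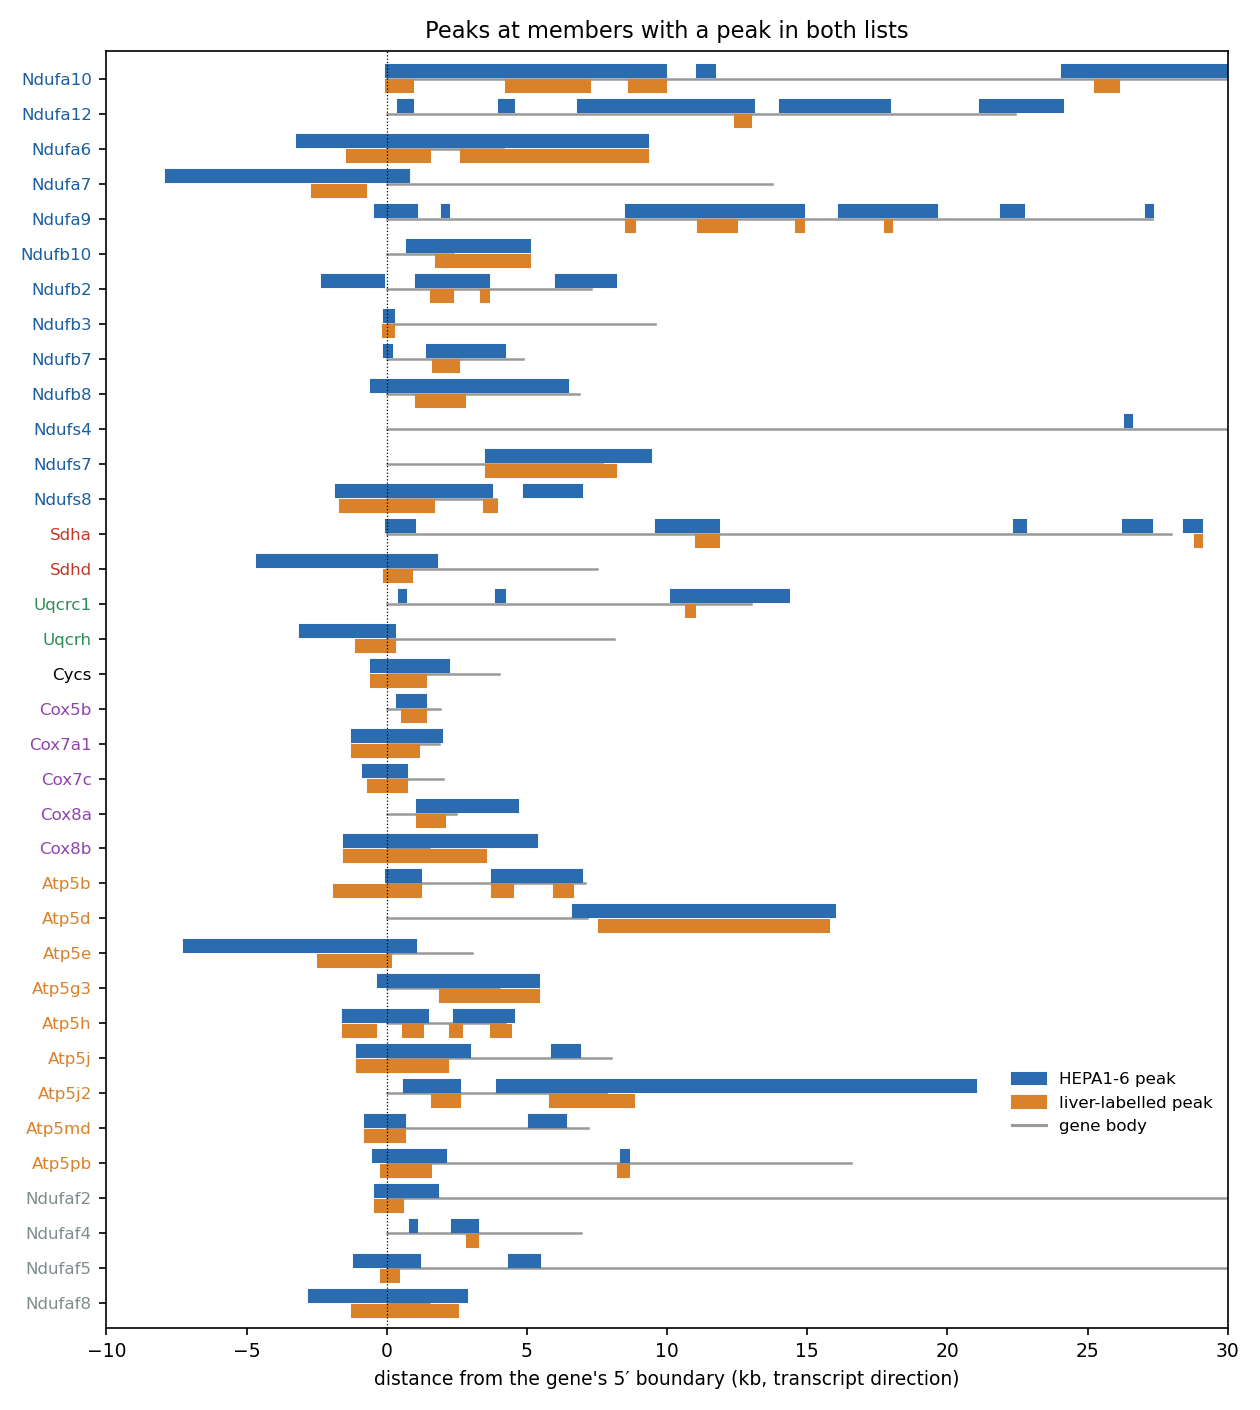
Each row is one of the 36 members with a peak in both lists and a RefSeq start site, drawn in the direction of transcription from its 5′ boundary (x axis, kb). Grey lines are gene bodies, blue bars HEPA1-6 peaks and orange bars liver-labelled peaks. The axis ends at 30 kb, which cuts 4 genes and leaves 7 peaks wholly or partly beyond it. At Cox7c, Cycs, Ndufb3 and Atp5md both peaks lie over the start, and at Atp5d both lie at the 3′ end and beyond.

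Members without a peak were not all far from one. Of the 26 without a HEPA1-6 peak, 8 had one within 5 kb of the gene body and 8 had none within 50 kb. Of the 49 without a liver-labelled peak, 7 had one within 5 kb and 22 none within 50 kb. The nearest were at 1857 bp (Ndufa3) and 1032 bp (Ndufs6). Distances were not computed for other genes. With a flank of 5 kb, 81.4% of members had a HEPA1-6 peak, beside 46.35% of all protein-coding genes. For the liver-labelled list the shares were 56.7% and 33.6%.

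Promoter sequence was compared because peaks lay at the start of 40 members. Over the window from 250 bases before to 50 after the start site, the members' median G+C content was 58.3%, beside 56.3% over 17492 protein-coding genes, and their median ratio of observed to expected CpG was 0.833, beside 0.577. The median GC skew, the excess of G over C on the gene's strand relative to their sum, was -0.0359, beside 0.00709. Among genes with a peak in both lists the medians were 58.2% beside 62.0% (G+C), 0.855 beside 0.802 (CpG) and -0.0661 beside 0.00535 (skew). The whole window lay under a peak at 23 of the 79 members in HEPA1-6, at 14 in the liver-labelled list and at 13 in both. The same count was not made over all protein-coding genes, so these counts have no background beside them.

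Letters of known factor motifs were searched on both strands. GCGCANGCG, the core of the NRF1 motif, was present in 22 of 79 member promoters (27.85%), in 8.87% of protein-coding ones and in 6.25% of all 32851 promoters in the table. ACTTCCG, the core bound by GABP and other ETS factors, was in 12 (15.2%), beside 8.58% and 6.42%. AAGATGGCG, a YY1 motif, was in 7 (8.86%), beside 1.92% and 1.40%. GGGCGG, the SP1 box, was in 36 (45.6%), beside 46.3% and 35.7%. At least 1 of the first 3 motifs was in 37 members (46.8%), beside 17.5% of protein-coding genes. Among the 36 members with a peak in both lists, NRF1 letters were in 10 (27.8%, beside 14.5% of genes with a peak in both lists) and ETS letters in 8 (22.2%, beside 14.6%). Among the 20 with no peak, they were in 5 (25%, beside 4.37%) and 2 (10.0%, beside 3.85%). Members with a HEPA1-6 peak only stood at 31.8% for NRF1 (7 of 22, beside 15.4%) and at 9.09% for ETS (2 of 22, beside 15.5%). These counts are small, and no intervals were computed for the motif shares.

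**Figure D5:**
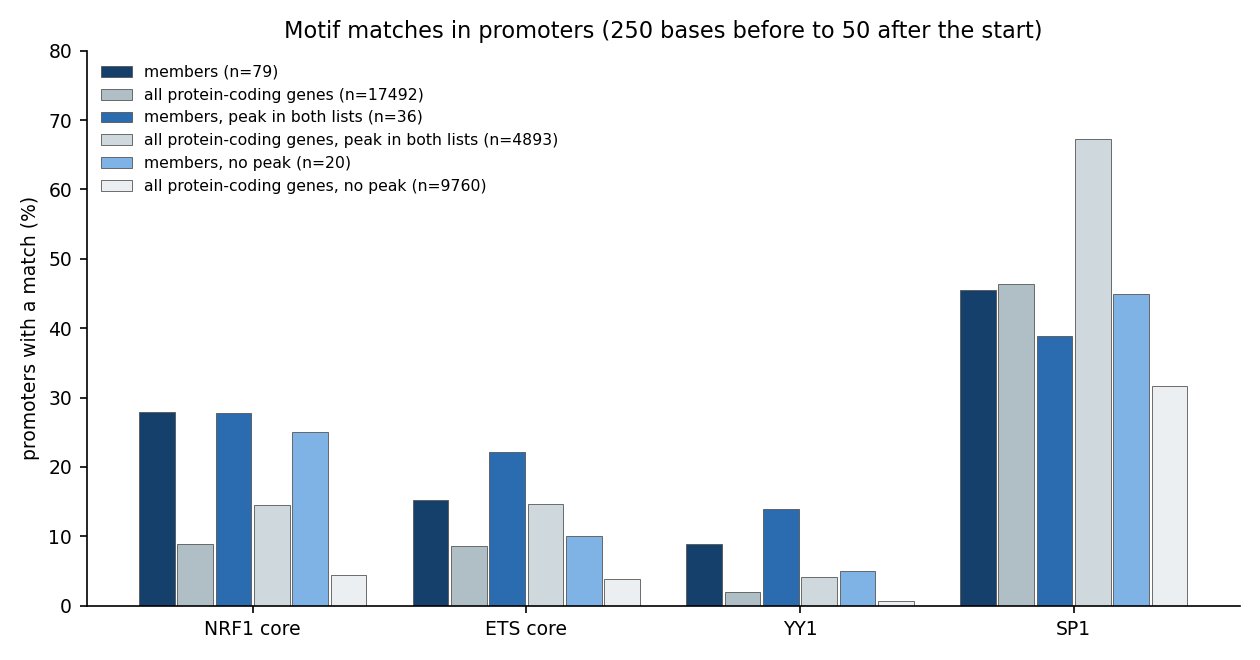
The bars give the percentage of promoters (250 bases before to 50 after the start) with at least 1 match of each motif, for members (blue shades) and all protein-coding genes (grey shades): all with an entry, those with a peak in both lists, and those with none. The NRF1 bars of members stand at 27.85%, 27.8% and 25%, and the grey ones at 8.87%, 14.5% and 4.37%.

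Promoters of 8 members show how different the sequences at the starts were, both under peaks and outside them. They were chosen after the values were seen: Ndufa6, Uqcrh, Cycs, Cox7c and Atp5md because their whole window lay under a peak in both lists, Sdha as the complex II gene with 3 NRF1 matches, and Cox8a and Cox8b as a pair of isoforms. The sequences are RefSeq's (GRCm38.p6), 5′ to 3′ on the gene's strand, which is minus for all 8, and capitals mark NRF1 and ETS core letters. They come from chr15:82354242-82354541 (Ndufa6), chr13:74350191-74350490 (Sdha), chr4:116075021-116075320 (Uqcrh), chr6:50566520-50566819 (Cycs), chr13:86046746-86047045 (Cox7c), chr7:140900397-140900696 (Cox8b), chr19:7217567-7217866 (Cox8a) and chr19:47090598-47090897 (Atp5md).
Ndufa6: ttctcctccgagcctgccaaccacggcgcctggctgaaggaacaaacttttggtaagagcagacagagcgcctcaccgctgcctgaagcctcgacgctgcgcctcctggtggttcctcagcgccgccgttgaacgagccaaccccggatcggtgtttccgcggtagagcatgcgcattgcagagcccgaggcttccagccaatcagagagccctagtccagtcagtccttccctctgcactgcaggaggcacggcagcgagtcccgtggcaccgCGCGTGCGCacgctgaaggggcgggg
Sdha: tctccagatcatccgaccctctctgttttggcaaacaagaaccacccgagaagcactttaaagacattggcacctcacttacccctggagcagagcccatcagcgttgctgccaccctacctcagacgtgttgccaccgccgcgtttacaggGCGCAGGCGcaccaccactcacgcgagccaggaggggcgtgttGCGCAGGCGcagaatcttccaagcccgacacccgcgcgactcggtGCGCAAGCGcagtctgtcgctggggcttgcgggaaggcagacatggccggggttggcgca
Uqcrh: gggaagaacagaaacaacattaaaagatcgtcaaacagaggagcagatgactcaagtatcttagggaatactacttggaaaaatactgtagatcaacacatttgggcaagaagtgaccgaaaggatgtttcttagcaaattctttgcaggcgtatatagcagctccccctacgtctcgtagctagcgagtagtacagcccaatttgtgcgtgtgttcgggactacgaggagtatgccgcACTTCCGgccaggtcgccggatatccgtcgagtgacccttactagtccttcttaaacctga
Cycs: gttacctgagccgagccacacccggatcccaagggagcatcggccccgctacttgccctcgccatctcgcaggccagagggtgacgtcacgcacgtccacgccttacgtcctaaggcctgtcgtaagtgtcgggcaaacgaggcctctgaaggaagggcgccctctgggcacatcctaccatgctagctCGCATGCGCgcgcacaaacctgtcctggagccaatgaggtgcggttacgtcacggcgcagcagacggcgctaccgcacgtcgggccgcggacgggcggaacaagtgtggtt
Cox7c: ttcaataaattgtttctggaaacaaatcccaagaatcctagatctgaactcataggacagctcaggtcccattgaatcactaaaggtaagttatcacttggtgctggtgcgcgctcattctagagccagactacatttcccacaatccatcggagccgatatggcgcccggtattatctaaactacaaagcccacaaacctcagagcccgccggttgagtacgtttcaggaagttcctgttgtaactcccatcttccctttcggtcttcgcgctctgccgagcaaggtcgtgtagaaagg
Cox8a: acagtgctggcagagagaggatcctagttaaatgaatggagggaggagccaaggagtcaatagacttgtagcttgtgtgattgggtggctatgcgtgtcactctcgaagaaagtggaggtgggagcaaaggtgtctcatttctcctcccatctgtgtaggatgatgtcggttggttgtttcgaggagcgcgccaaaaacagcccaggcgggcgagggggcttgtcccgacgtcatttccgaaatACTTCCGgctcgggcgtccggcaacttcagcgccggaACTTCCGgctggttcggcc
Cox8b: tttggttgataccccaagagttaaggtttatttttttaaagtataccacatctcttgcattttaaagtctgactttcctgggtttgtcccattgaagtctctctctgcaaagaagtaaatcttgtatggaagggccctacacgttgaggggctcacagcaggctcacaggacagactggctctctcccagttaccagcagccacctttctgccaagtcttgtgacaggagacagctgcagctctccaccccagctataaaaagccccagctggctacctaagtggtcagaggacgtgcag
Atp5md: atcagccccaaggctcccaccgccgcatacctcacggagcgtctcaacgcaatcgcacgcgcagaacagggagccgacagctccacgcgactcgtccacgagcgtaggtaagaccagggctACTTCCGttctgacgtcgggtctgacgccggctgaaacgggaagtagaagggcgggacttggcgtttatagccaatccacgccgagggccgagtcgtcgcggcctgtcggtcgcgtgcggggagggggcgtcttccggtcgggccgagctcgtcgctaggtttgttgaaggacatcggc

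Cox7c, with the highest-scoring peaks of all members, had none of the 3 motifs in its window, a G+C content of 48.0% and a CpG ratio of 0.823. Cox8b, also wholly under peaks, had none either and a CpG ratio of 0.115, and its widely expressed partner Cox8a had 2 ETS cores, a CpG ratio of 0.842 and no base of the window under a peak in either list. Sdha had 3 NRF1 cores, and 69 of its 300 bases lay under a HEPA1-6 peak and 0 under a liver-labelled one. Uqcrh had 1 ETS core, Atp5md 1 ETS core, and Cycs and Ndufa6 1 NRF1 core each. A match is a description of letters, and binding was not measured.

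The genes of these factors and of their coactivators were looked at as a list of 13 regulators. HEPA1-6 peaks lay at 9 and liver-labelled peaks at 8. Those with a peak in both lists were Nrf1 (top scores 37 and 27), Gabpa (56 and 71), Gabpb1 (148 and 93), Yy1 (74 and 69), Sp1 (46 and 42), Pprc1 (82 and 51), Esrra (138 and 67) and Polrmt (28 and 16), the mitochondrial RNA polymerase. The scores at Gabpa are those of the peak it shares with Atp5j. The coactivators Ppargc1a and Ppargc1b, and the mitochondrial transcription factors Tfam and Tfb1m, had no peak.

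Genes for proteins of the mitochondrial ribosome (78, symbols starting Mrp) stood close to the respiratory chain genes in HEPA1-6 (62 genes, 79.5%, 69.25 to 87.0%) and in the liver-labelled list (33, 42.3%, 32.0 to 53.4%). Genes for proteins of the cytosolic ribosome (84, symbols starting Rpl or Rps) stood higher, at 78 (92.9%, 85.3 to 96.7%) and 76 (90.5%, 82.3 to 95.1%), and neither interval overlapped that of the respiratory chain genes. Of genes with a HEPA1-6 peak, the share that also had a liver-labelled one was 66.2% for the respiratory chain (54.6 to 76.1%), 53.2% for the mitochondrial ribosome (41.0 to 65.1%) and 97.4% for the cytosolic ribosome (91.1 to 99.3%), beside 66.1% of all protein-coding genes.

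Of 19 annotated pseudogenes of these families, 1 (Ndufa12-ps) had a HEPA1-6 peak and 0 a liver-labelled one. The share over all annotated pseudogenes was not computed, so it is unknown whether these families differ from other pseudogenes. The partner subunits coded by mitochondrial DNA lay under very wide peaks: 1 HEPA1-6 peak overlapped all 13 mitochondrial protein genes, and 2 liver-labelled peaks overlapped 11 of them, 9 over their full length.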

How the data were processed

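R-loops had been mapped by S9.6 immunoprecipitation. Per the submitters' processing notes the tools include CASAVA 1.8.2, cutadapt, Bowtie2, SAMtools, bedtools and MACS2, with build mm10; their settings are not given in the sources used here. The authors deposited 1 peak list per source with a score per peak. The names of the peaks point to merged immunoprecipitates called over input. The merged libraries, the scale of the score and how a strand was assigned are not given in the sources used here. Single libraries and RNase H1 libraries were not analysed here, so depth is unknown.

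Members, gene lists and tests were chosen with earlier results of these data known. Peaks were intersected (overlap of 1 bp or more) with RefSeq gene boundaries (GRCm38.p6), extended by 1 kb, with Python 3.11.15, NumPy 2.4.6 and SciPy 1.17.1. Starts, strands and promoter sequences came from RefSeq's promoter table, which matched 79 of 97 members; the other 18 were left out of those counts. Intervals are 95% Wilson intervals, and for medians binomial intervals of the order statistics. They cover counting error only, and neighbouring genes can share a peak.

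Named were the 2 highest-scoring members per complex and list, all with a liver-labelled peak only, the isoform pairs, the Sdh genes and Cycs, the 3 with most or widest peaks, all subunits without a peak, and members with opposite strands. Genes of the added lists with values, and the promoters printed, were chosen after their values were seen. On simulated peaks planted at 200 of 21887 genes, 100% were found and 0 others. These 200 were drawn only from genes standing apart from other protein-coding genes, so the 0 was fixed in advance. Peaks shared by neighbouring genes were not simulated. Alternatives were the flank, the peak midpoint, higher-scoring or equally many peaks, peaks over 1 gene, peaks with a strand, the overlap, the start window, and leaving out some members or chromosomes.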

Additional observations from a re-analysis of the deposited data

How the results depend on the processing

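Over 28 results, 52 of 64 alternatives stayed within 1.5 times a reported count or within the interval of a reported value, and 12 moved. Recounts of very few genes, such as the 1 gene of cytochrome c, had little room to move. Keeping the higher-scoring 50% of each list left 31 members with a liver-labelled peak (31.96%, beside 20.75% of all protein-coding genes), 30 with a peak in both lists (30.9%, beside 19.3%) and 30 with overlapping peaks (30.9%, beside 18.7%). Keeping only peaks over 1 protein-coding window left 30 (30.9%, beside 22.0%) and 23 (23.7%, beside 18.7%) for the first 2 of these. It also lowered the members with a HEPA1-6 peak from 71 to 48 (49.5%, beside 32.2%). That count stayed within 1.5 times, but its share fell below the reported interval of 63.6 to 81.0%. The HEPA1-6 median score was then 20, beside 20 for all genes, and the median widths were 1043 bp (HEPA1-6, beside 1064 bp) and 823 bp (liver-labelled, beside 905 bp). Requiring an overlap of 50% of both peaks left 22 members with overlapping peaks (22.7%, beside 14.9%). Counting the peak midpoint lowered the HEPA1-6 share at the start to 22.1% (beside 12.6%) and at the end to 15.9% (beside 8.25%). Taking the highest-scoring peak of each member raised the HEPA1-6 median score to 34, the same value as over all genes. With equal numbers of peaks in both lists, HEPA1-6 peaks lay at 60 members (61.9%, beside 33.97%). Without a flank, Atp5k lost its HEPA1-6 peak and Ndufa7, Uqcrb, Atp5d and Atp5g1 their liver-labelled one.

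No paired analysis was possible because each source has 1 merged list. For the same reason no replicate was left out. The spread between libraries and the depth behind the lists are unknown, and a gene without a peak is one without a peak above the authors' threshold.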
